A study of Saccharomyces cerevisiae with 12 samples.

Results

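Control cultures of Saccharomyces cerevisiae grown for 25 generations were compared with control cultures grown for 5 generations. The members are the 6 arrays whose titles name a control sample of the 5th (Ctrl 5, 3 arrays) or the 25th generation (Ctrl 25, 3 arrays), of 12 arrays in all. The strain was BY4743, a diploid laboratory strain, grown in YPD medium at 30 °C in high aspect ratio vessels (HARVs), which are rotating vessels filled with medium. Control HARVs were held in the horizontal position, and the other 6 arrays (SMG 5 and SMG 25, 3 each) are of cells grown in HARVs turned to the vertical position, which models low shear microgravity (LSMMG). The cultures were kept in log phase by serial dilution, and total RNA was labelled and hybridised to Affymetrix Yeast Genome 2.0 arrays. The paper also measured glucose in the medium, and the mean reading of its control cultures was higher at the later time than at the earlier time. Its authors took the readings to show that the cells were in logarithmic growth. The control groups may therefore differ in medium glucose as well as in generations. The part of glucose in the results below was not tested. All groups share the auxotrophies of this strain (HIS3, LEU2 and URA3 are lost, and LYS2 and MET17 are present in 1 copy), and the labels name no further mutation and no drug. The labels do not say whether the 3 arrays of a group came from separate cultures, so p-values measure only the spread between these arrays, which may be technical. The growth description of all samples names 5 generations, so the generation of each array was taken from its title. The cluster figure of the paper labels 1 more control array as 5 generations, and 1 fewer as 25, than the titles do. Which array this is cannot be told from the labels, so 1 of the Ctrl 25 arrays may be of 5 generations. This was not tested.

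Yeast dividing in rich medium with glucose makes ribosomes at a high rate and holds back the genes of respiration, of other carbon sources and of storage carbohydrates. As glucose runs low, the stress regulators Msn2 and Msn4 and the release from glucose repression switch on genes for heat shock proteins, trehalose, glycogen and respiration. A diploid cell also keeps the genes of haploid mating shut off and enters meiosis only when starved. Genes near the chromosome ends are partly silenced by telomeric chromatin. Each deposited value is a ratio of a probe set's signal on an array to its own median over the 12 arrays, so that a ratio of 1 is that median, and no level can be compared between genes.

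The control arrays did not divide by generation. Over the 8968 tested probe sets, log2 ratios of the Ctrl 25 arrays correlated with each other at 0.873 to 0.903. Within Ctrl 5 the correlations were 0.652 for replicates 1 and 2, 0.572 for replicates 1 and 3 and 0.344 for replicates 2 and 3. Ctrl 5 replicate 3 correlated at 0.823 to 0.931 with the Ctrl 25 arrays, more closely than with its own group, and for 4131 of 5449 named genes (75.8%) its ratio lay nearer to the Ctrl 25 mean than to the mean of Ctrl 5 replicates 1 and 2. The value of 0.931 was with Ctrl 25 replicate 3. That array correlated less closely with replicates 1 and 2 of its own group, at 0.887 and 0.873. Probe sets are not independent readings, so no p is given for these values. The median SD of a gene's log2 ratio was 0.25 within Ctrl 5 and 0.157 within Ctrl 25, against 0.0806 within SMG 5 and 0.0910 within SMG 25.

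Array controls that hold no tested gene also moved between these arrays. The 16 control probe sets for S. cerevisiae 18S and 25S rRNA had median ratios of 0.714, 0.697 and 0.958 on Ctrl 5 replicates 1 to 3 and of 104, 96.9 and 2.87 on Ctrl 25 replicates 1 to 3. The 8 probe sets at the 5′ ends of spiked Bacillus subtilis transcripts had a median ratio of 0.315 on Ctrl 5 replicate 2, with a lowest ratio of 0.0427, and those at the 3′ ends one of 1.43. On Ctrl 25 replicates 1 and 2 both ends were low, with 5′ medians of 0.288 and 0.428 and 3′ medians of 0.4075 and 0.4575. The 9 hybridization controls had median ratios of 0.778, 0.912 and 1.26 on Ctrl 5 replicates 1 to 3. On Ctrl 25 replicates 1 to 3 they had 0.898, 0.811 and 1.40, so replicate 3 was the highest of each group. The part of these array differences in the results below was not tested.

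No probe set passed the test between Ctrl 25 and Ctrl 5. Of 8968 tested probe sets, 0 (0.0%) were called by limma at an adjusted p under 0.05, with or without a 2-fold minimum, and the smallest adjusted p was 0.35. At an unadjusted p under 0.05 there were 1192 (13.3%), of which 306 (3.41%) were higher and 886 (9.88%) lower at 25 generations. The 3 Ctrl 25 arrays all lay above the 3 Ctrl 5 arrays for 605 probe sets (6.75%) and all below for 1015 (11.3%), and these differences were at least 2-fold for 13 and 166 of them. Among the 5449 named genes 300 (5.51%) lay above and 859 (15.8%) below. The 1746 S. pombe probe sets of the same array, which have no target in these cells, leaned the other way, with 178 (10.2%) above and 52 (2.98%) below, and none of them at least 2-fold.

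With the replicate number as a block, 3 probe sets passed, all lower at 25 generations: PAU21, YBL008W-A and YBR219C, each with an adjusted p of 0.033. The outcome turned on Ctrl 5 replicate 3. Without that array 656 probe sets were called, 91 higher (1.01%) and 565 lower (6.3%) at 25 generations, whereas leaving out any other control array gave 0 calls. The plot of calls by setting shows this.

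**Figure D1:**
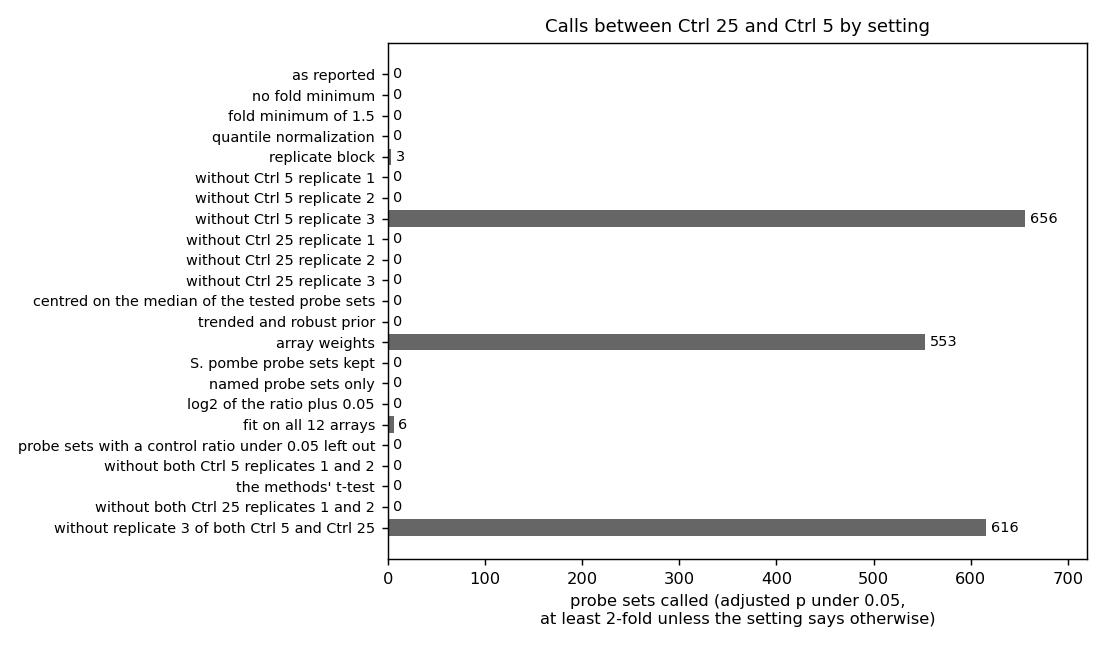
Bars give the number of probe sets called between Ctrl 25 and Ctrl 5 (horizontal axis, of 8968) for each setting on the vertical axis. Only settings that leave out or down-weight Ctrl 5 replicate 3 give more than 6 calls (656, 616 and 553). The 553 came with array weights of 5.705, 0.648 and 0.210 on Ctrl 5 replicates 1 to 3, so replicate 1 carried most of that group.

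The 10 genes with the largest higher differences at 25 generations without overlap were HAC1, HEM3, DHH1, SPT5, TDA10, CPS1, AIM17, PSP2, SRO9 and BDH1, and none of them passed the test. HEM3 (YDL205C), the porphobilinogen deaminase of heme synthesis, had ratios of 0.359, 0.186 and 0.166 on Ctrl 5 replicates 1 to 3 and 0.902, 0.736 and 1.21 on Ctrl 25 replicates 1 to 3. All Ctrl 25 ratios were above all Ctrl 5 ratios, and the log2 difference of 2.06 (SE 0.33) had the smallest adjusted p of the comparison, 0.35, shared with other genes. On the LSMMG arrays, HEM3 ratios were 1.06, 1.59 and 1.38 at 5 generations and 1.29, 1.06 and 0.948 at 25 generations, so that the 3 Ctrl 5 arrays were the lowest of the 12. TDA10 (YGR205W), which encodes an ATP-binding protein of unknown function, had 0.143, 0.0933 and 0.119 on Ctrl 5 and 0.312, 0.427 and 0.290 on Ctrl 25, a log2 difference of 1.53 (SE 0.21, adjusted p = 0.35). Both groups were tight, and its LSMMG ratios of 1.57 to 2.05 were all above the control arrays.

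DHH1 (YDL160C) encodes an RNA helicase that promotes removal of the mRNA cap. Its ratios were 0.936, 0.235 and 0.310 on Ctrl 5 and 1.21, 1.53 and 1.58 on Ctrl 25, a log2 difference of 1.81 (SE 0.49, adjusted p = 0.35). The RNA-binding proteins SRO9 (YCL037C) and PSP2 (YML017W) were also higher on every Ctrl 25 array. SRO9 had 1.10, 0.672 and 0.896 on Ctrl 5 against 2.53, 1.65 and 2.65 on Ctrl 25, a log2 difference of 1.35 (SE 0.25). PSP2 had 0.7, 0.457 and 0.257 against 0.962, 1.21 and 1.43, a log2 difference of 1.45 (SE 0.36). In LSMMG the same contrast was 1.12 for SRO9 (limma adjusted p = 0.024) and -0.08 for PSP2 (adjusted p = 0.64). The adjusted p between the control groups was 0.35 for both genes.

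CPS1 (YJL172W), a carboxypeptidase of the vacuole, had 0.433, 0.259 and 0.151 on Ctrl 5 and 0.833, 0.853 and 0.563 on Ctrl 25, a log2 difference of 1.52 (SE 0.38, adjusted p = 0.35). It rose by 0.74 between 5 and 25 generations in LSMMG (adjusted p = 0.021). AIM17 (YHL021C), which encodes a mitochondrial protein, had 0.233, 0.129 and 0.207 against 0.559, 0.780 and 0.336. BDH1 (YAL060W), the butanediol dehydrogenase, had 0.470, 0.410 and 0.880 against 1.31, 1.39 and 1.35. Their log2 differences were 1.52 (SE 0.35) and 1.29 (SE 0.28), both with an adjusted p of 0.35. BDH1 was nearly constant on Ctrl 25, with an SD of 0.047 on the log2 scale, and spread by 0.59 on Ctrl 5.

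The gene with the largest log2 difference upward, HAC1 (YFL031W), rested on 1 array. HAC1 encodes the transcription factor of the unfolded protein response. Its ratios were 0.908, 0.0155 and 1.14 on Ctrl 5 and 1.25, 1.75 and 1.48 on Ctrl 25, so the log2 difference of 2.56 had an SE of 1.56 (adjusted p = 0.48). SPT5 (YML010W), a transcription elongation factor, had 0.965, 0.0647 and 1.10 against 1.13, 1.26 and 1.28, a log2 difference of 1.57 (SE 1.03, adjusted p = 0.51). Both genes stood low on Ctrl 5 replicate 2, the array that held the lowest single ratio of a spiked 5′ probe set (0.0427), and on the other 11 arrays HAC1 ran from 0.860 to 1.75.

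The 10 genes with the largest lower differences without overlap were PAU21, VBA3, DGR1 and genes that carry a systematic name only. YFL067W had ratios of 1.58, 4.53 and 0.877 on Ctrl 5 and 0.287, 0.264 and 0.188 on Ctrl 25, a log2 difference of -2.93 (SE 0.56, adjusted p = 0.35). YAL064W had 1.64, 3.93 and 0.924 against 0.309, 0.281 and 0.256, a log2 difference of -2.69 (SE 0.48, adjusted p = 0.35). Ctrl 5 replicate 2 was the highest and replicate 3 the lowest of its group for all 10 genes, and the Ctrl 25 arrays lay between 0.0872 and 0.399. PAU21 (YOR394W), of the seripauperin family of small cell wall proteins, had 1.20, 2.29 and 0.911 on Ctrl 5 against 0.232, 0.286 and 0.157, a log2 difference of -2.64 (SE 0.37) with an adjusted p of 0.35, and of 0.033 with the replicate block. Members of this family are close to identical in sequence, so its value is shared among them to an unknown degree. YBL008W-A had 1.70, 3.01 and 0.917 against 0.286, 0.399 and 0.180, a log2 difference of -2.61 (SE 0.47, adjusted p = 0.35 and 0.033 with the block).

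VBA3 (YCL069W), a transporter of basic amino acids into the vacuole, had 1.31, 2.0 and 0.260 on Ctrl 5 against 0.135, 0.218 and 0.160 on Ctrl 25, a log2 difference of -2.39 (SE 0.72). DGR1 (YNL130C-A), a small gene named for resistance to 2-deoxyglucose, had 1.0, 2.28 and 0.264 against 0.0952, 0.210 and 0.148, a log2 difference of -2.56 (SE 0.75). In both genes Ctrl 5 replicate 3 lay close to the highest Ctrl 25 ratio. YDL159W-A, YOL155W-A, YAR064W and YLR012C had log2 differences of -2.62 (SE 0.64), -2.57 (SE 0.52), -2.52 (SE 0.53) and -2.46 (SE 0.53), all with an adjusted p of 0.35. In LSMMG none of the 10 genes passed the same contrast, with adjusted p of 0.20 to 0.94, and replicate 1 of SMG 5 was the highest of its group for each. The plot of separated genes shows the 6 control ratios of these 20 genes.

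**Figure D2:**
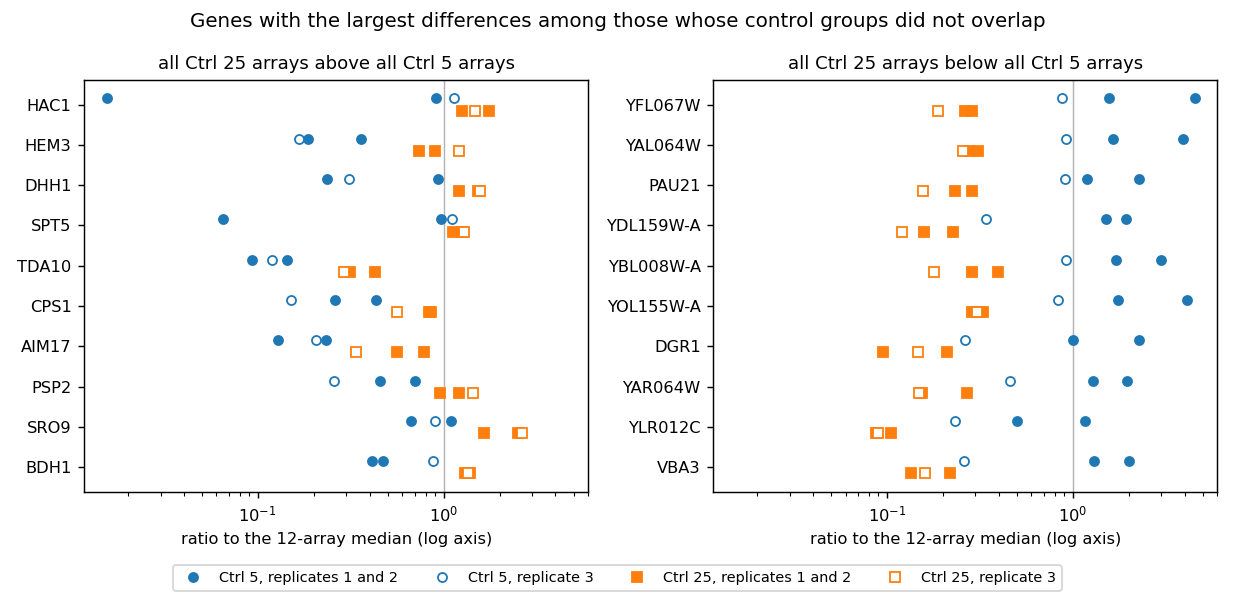
Points give the ratio of each control array to the 12-array median (horizontal, log axis) for 10 genes higher and 10 lower on all Ctrl 25 arrays (rows); blue circles are Ctrl 5, orange squares Ctrl 25, and open symbols replicate 3. HAC1 and SPT5 rest on 1 low point at 0.0155 and 0.0647, and in the right panel open circles (Ctrl 5 replicate 3) lie nearest to the squares.

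Genes at chromosome ends were frequent among those lower at 25 generations. When the outermost 10 protein-coding genes at each end of the 16 chromosomes were counted, in the gene order of the R64 annotation, 235 of the 5449 named genes (4.31%) were among them. They made up 39 of 152 genes (25.7%) that were at least 2-fold lower without overlap, and 0 of 12 that were at least 2-fold higher. Of the 235, 78 (33.2%) were lower and 2 (0.851%) higher on every Ctrl 25 array, against 15.8% and 5.51% of all named genes. Their median log2 ratios were -0.04, 0.05 and -0.38 on Ctrl 5 replicates 1 to 3 and -0.71, -0.63 and -0.52 on Ctrl 25. Ctrl 5 replicate 3 was the lowest array of its group. Families at chromosome ends share sequence, so their probe sets are not independent readings, and these counts are given as a description.

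The genes that varied most over the 6 arrays were ranked without regard to generation. The SD of the log2 ratio was at least 1 for 175 of 5449 named genes (3.21%), and 347 genes spanned at least 4-fold between their highest and lowest control ratio, whereas 2281 spanned less than 1.5-fold. In 149 of the 175, Ctrl 5 replicates 1 and 2 were both above the other 4 arrays, and in 18 both were below. The 2 lowest arrays were Ctrl 5 replicate 3 and Ctrl 25 replicate 3 for 63 of the 175. The groups did not overlap for 70 of the 175. Of all named genes, 5.51% were higher and 15.8% lower without overlap, but the 175 were picked by a spread that includes the difference between groups. The orders of the arrays were not counted over all named genes. An SD of at least 1 was found for 10 of 24 genes of stationary phase and desiccation (41.7%), 10 of 40 of the general stress response (25.0%) and 7 of 28 of hexose transport and glucose sensing (25.0%), against 3.21% of all named genes. It was also found for 3 of 13 genes of galactose and maltose use (23.1%). Only 63 of the 175 were on any gene list, and 29 of the 175 (16.6%) were among the outermost genes of a chromosome end, against 4.31% of all named genes.

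DDR2 (YOL052C-A), a gene induced by many stresses, had ratios of 0.986, 1.03 and 0.0349 on Ctrl 5 and 0.138, 0.158 and 0.0363 on Ctrl 25. Replicates 3 of both groups were low and alike, and replicates 1 and 2 of Ctrl 5 were at the median of the 12 arrays. The SD over the 6 arrays was 2.17 on the log2 scale, and the difference of -1.83 (SE 1.36, adjusted p = 0.55) did not pass. FMP16 (YDR070C), a mitochondrial protein induced by stress, had 1.01, 1.21 and 0.0577 against 0.105, 0.0848 and 0.0550. MOH1 (YBL049W), needed for survival in stationary phase, had 0.860, 1.23 and 0.0616 against 0.0855, 0.148 and 0.0421. Both repeat this order of the arrays, with SDs of 2.06 and 2.04 and adjusted p of 0.40 and 0.41.

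The cell wall gene PIR3 (YKL163W) had 1.03, 1.15 and 0.0600 on Ctrl 5 and 0.131, 0.113 and 0.0688 on Ctrl 25. GRE1 (YPL223C), a hydrophilin of desiccation tolerance, had 1.47, 1.37 and 0.0962 against 0.158, 0.140 and 0.0978. In both genes Ctrl 5 replicates 1 and 2 stood far above the remaining 4 arrays, which lay close together. Without Ctrl 5 replicate 3, GRE1 was called at a log2 difference of -3.45 (adjusted p = 0.0011), and with all arrays it had -2.16 (SE 1.02, adjusted p = 0.40). SPG4 (YMR107W), required for survival in stationary phase, had 0.218, 0.146 and 0.0100 against 0.0430, 0.0325 and 0.0100, where 0.0100 is the lowest value in the files, so that its spread has a lower bound only.

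GND2 (YGR256W), the minor 6-phosphogluconate dehydrogenase, and NQM1 (YGR043C), a transaldolase, belong to the pentose phosphate pathway. GND2 had 1.30, 1.07 and 0.0767 on Ctrl 5 against 0.223, 0.210 and 0.0839 on Ctrl 25. NQM1 had 1.43, 1.42 and 0.104 against 0.297, 0.315 and 0.0912. In these genes the arrays took 3 levels, with Ctrl 5 replicates 1 and 2 highest, Ctrl 25 replicates 1 and 2 between and replicates 3 of both groups lowest. The uncharacterized YGR174W-A and YLR031W had SDs of 1.82 and 1.78 with the same arrays high. A further probe set of YGR174W-A gave a log2 difference of -2.26 (SE 1.15, adjusted p = 0.42), close to the -2.22 (SE 0.96) of the first.

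BSC1 (YDL037C), which resembles cell surface flocculins, ran the opposite way. Its ratios were 3.06, 0.590 and 30.4 on Ctrl 5 and 3.11, 6.79 and 24.8 on Ctrl 25, so that replicates 3 of both groups stood above all others, 51.6-fold from the highest to the lowest. The difference by generation was 1.08 (SE 1.44, adjusted p = 0.74), and its LSMMG ratios were 0.715 to 1.03. HXT1 (YHR094C), a low-affinity hexose transporter named here after its values were seen, had 0.331, 0.235 and 2.63 on Ctrl 5 and 1.96, 1.86 and 2.94 on Ctrl 25, a log2 difference of 1.90 (SE 0.86, adjusted p = 0.39). Likewise HXT2 (YMR011W) had 0.216, 0.164 and 1.53 against 0.829, 0.734 and 1.62. The transporters HXT5 (YHR096C) and HXT4 (YHR092C) were high where HXT1 was low. HXT5 had 0.553, 0.623 and 0.0910 against 0.165, 0.268 and 0.0551. HXT4 had 2.06, 2.21 and 0.651 against 1.05, 0.944 and 0.757. All 4 transporters were picked after their values were seen, from 28 measured genes of hexose transport and glucose sensing. Each showed Ctrl 5 replicates 1 and 2 on 1 side and Ctrl 5 replicate 3 on the other, and none passed the test (adjusted p = 0.39 to 0.54). The order of the arrays was not counted over the rest of that list.

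**Figure D3:**
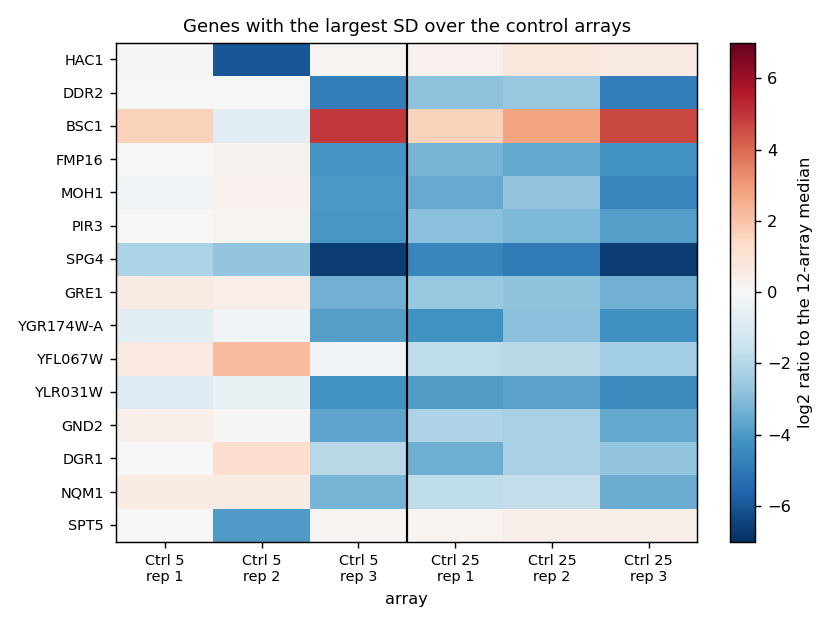
Colour gives the log2 ratio to the 12-array median for the 15 genes with the largest SD over the control arrays (rows) on each of the 6 arrays (columns; the line divides Ctrl 5 from Ctrl 25). In most rows Ctrl 5 replicates 1 and 2 stand near 0 and the other 4 arrays lie well below; BSC1 is reversed, and HAC1 and SPT5 are low on Ctrl 5 replicate 2 alone.

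The 5 largest SDs within Ctrl 25 belonged to BSC1, HOS2, GAC1, HSP30 and RPL41A. HOS2 (YGL194C), a histone deacetylase, had 1.28, 0.676 and 0.156 on Ctrl 25 replicates 1 to 3, an SD of 1.56 on the log2 scale, and 0.732, 0.729 and 0.263 on Ctrl 5. GAC1 (YOR178C), which directs the phosphatase Glc7 to glycogen synthase, had 0.539, 0.561 and 0.122 on Ctrl 25 and 1.58, 1.02 and 0.105 on Ctrl 5. In both genes replicate 3 was the lowest array of each group. HSP30 (YCR021C), a heat shock protein of the plasma membrane, had 0.136, 0.224 and 0.0386 against 0.378, 0.385 and 0.0321 on Ctrl 5. RPL41A (YDL184C), a ribosomal protein gene with a near-identical copy that may share its probe set, had 0.890, 1.31 and 4.25 on Ctrl 25 and 0.858, 0.837 and 0.880 on Ctrl 5.

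Gene lists for stress, storage and growth followed the arrays more than the generations. The 40 general stress genes had median log2 ratios of -0.21, -0.37 and -1.75 on Ctrl 5 replicates 1 to 3 and -0.85, -0.66 and -1.44 on Ctrl 25, and a median difference of -0.16 against -0.10 for all named genes. Of these, 1 was higher and 0 lower without overlap, against 5.51% and 15.8% of all named genes. Leaving out Ctrl 5 replicate 3 made 0 of them called higher and 18 lower without a fold minimum (6.88% and 22.5% of all named genes). The 22 genes of trehalose and glycogen had -0.26, -0.52 and -1.54 on Ctrl 5 and -0.39, -0.32 and -1.15 on Ctrl 25, a median difference of 0.05. The 67 genes of ribosome biogenesis had 0.68, 0.76 and 0.99 against 0.54, 0.39 and 0.96, a median difference of -0.18. Replicate 3 was their highest array in each group, whereas it was the lowest for the 2 lists above. On replicates 1 and 2 they were lower in Ctrl 25 than in Ctrl 5, as the general stress genes were. Of the 67, 15 (22.4%) were lower without overlap, against 15.8% of all named genes. Of 127 cytosolic ribosomal protein genes, 120 had a positive difference, with a median of 0.12. Without overlap 4 were higher and 1 lower, against 5.51% and 15.8% of all named genes.

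The 24 genes of stationary phase and desiccation had median log2 ratios of -0.37, -0.51 and -2.47 on Ctrl 5 and -1.81, -1.72 and -2.34 on Ctrl 25. Their median difference was -0.70, and 3 (12.5%) were lower and 0 higher without overlap, where 15.8% of all named genes were lower. SPG1 (YGR236C), required for survival in stationary phase, had 0.457, 0.683 and 0.267 against 0.183, 0.120 and 0.127, a log2 difference of -1.63 (SE 0.35, adjusted p = 0.35). RGI2 (YIL057C), which acts in energy metabolism under respiratory conditions, had 1.01, 1.02 and 0.379 against 0.312, 0.291 and 0.312, a log2 difference of -1.26 (SE 0.38, adjusted p = 0.35). In LSMMG SPG1 fell by 0.48 (adjusted p = 0.013) and RGI2 fell by 0.95 (adjusted p = 0.022) between the same times. MPC3 (YGR243W), a subunit of the mitochondrial pyruvate carrier, was also lower on every Ctrl 25 array, with 0.158, 0.174 and 0.138 on Ctrl 5 against 0.122, 0.134 and 0.101. Its log2 difference of -0.40 (SE 0.15, adjusted p = 0.37) became 0.29 after quantile normalization. SIP18 (YMR175W), a further hydrophilin, had 0.494, 0.552 and 0.105 against 0.122, 0.153 and 0.0889. The 26 genes of autophagy and vacuolar proteolysis had median log2 ratios of -0.30, -0.23 and -1.25 on Ctrl 5 and -0.77, -0.41 and -0.89 on Ctrl 25, with replicate 3 the lowest array of each group.

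**Figure D4:**
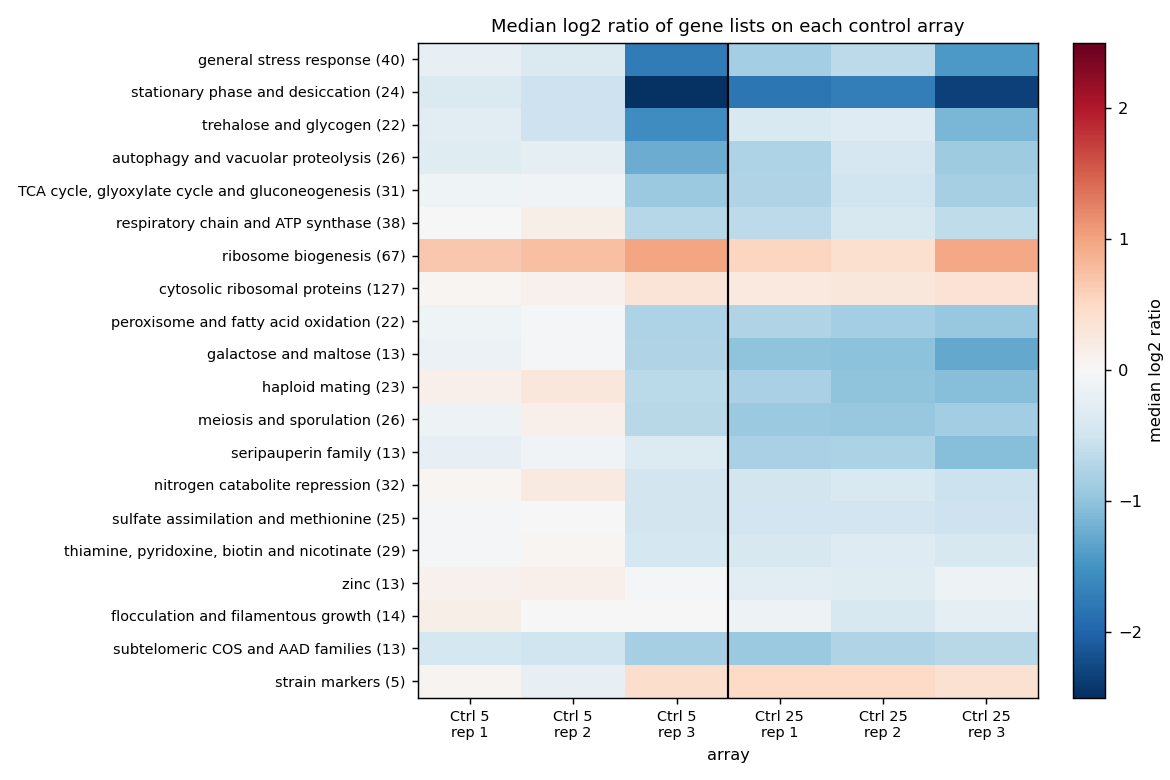
Colour gives the median log2 ratio of each gene list (rows, number of measured genes in parentheses) on each control array (columns; the line divides Ctrl 5 from Ctrl 25). The stress lists are lowest on replicate 3 of both groups, whereas mating, meiosis, galactose and seripauperin genes are lower on all 3 Ctrl 25 arrays than on Ctrl 5.

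The lists of respiration, the TCA cycle, peroxisomes and galactose use had negative median differences, and none of their genes passed the test. The 38 genes of the respiratory chain and ATP synthase had median log2 ratios of 0.00, 0.14 and -0.71 on Ctrl 5 and -0.66, -0.39 and -0.63 on Ctrl 25, with 34 negative differences, a median of -0.36 and 0 genes without overlap. ATP14 (YLR295C), a subunit of ATP synthase, had 1.07, 1.17 and 0.616 against 0.582, 0.635 and 0.614, a log2 difference of -0.59 (SE 0.25, adjusted p = 0.37). ATP3, ATP5 and ATP16, further subunits, had log2 differences of -0.50 (SE 0.20), -0.45 (SE 0.19) and -0.45 (SE 0.20). Without Ctrl 5 replicate 3 and without a fold minimum, 28 of the 38 were called lower, against 22.5% of all named genes. The 31 genes of the TCA cycle, the glyoxylate cycle and gluconeogenesis had a median difference of -0.27, with 5 (16.1%) lower without overlap, close to the 15.8% of all named genes, and the 25 of glycolysis and fermentation one of 0.03.

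All 22 genes of peroxisomes and fatty acid oxidation had a negative difference, with a median of -0.62, and 8 (36.4%) were lower without overlap, against 15.8% of all named genes. CTA1 (YDR256C), the peroxisomal catalase, had 0.826, 0.823 and 0.693 on Ctrl 5 against 0.309, 0.266 and 0.462 on Ctrl 25, a log2 difference of -1.21 (SE 0.22, adjusted p = 0.35). It fell by 0.53 in LSMMG (adjusted p = 0.044). CRC1 (YOR100C), the mitochondrial carnitine carrier, had 0.995, 1.05 and 0.297 against 0.281, 0.205 and 0.155, a log2 difference of -1.71 (SE 0.51, adjusted p = 0.35). PEX21, a factor of peroxisomal import, and PXA1, a subunit of the peroxisomal fatty acid transporter, had -0.66 (SE 0.16) and -0.42 (SE 0.11).

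The 13 measured genes of galactose and maltose use had the most negative median of all lists, -1.17, with 13 negative differences and 5 (38.5%) lower without overlap, against 15.8% of all named genes. Their median log2 ratios were -0.15, -0.02 and -0.75 on Ctrl 5 and -1.01, -1.03 and -1.29 on Ctrl 25, so Ctrl 5 replicate 3 lay between the other arrays of its group and Ctrl 25. GAL10 (YBR019C), the galactose epimerase, had 0.688, 0.964 and 0.308 on Ctrl 5 against 0.250, 0.251 and 0.178, a log2 difference of -1.40 (SE 0.41, adjusted p = 0.35). GAL2 (YLR081W), the galactose permease, had 1.28, 1.81 and 0.886 against 0.595, 0.338 and 0.222, a log2 difference of -1.84 (SE 0.40, adjusted p = 0.35). These genes are repressed in glucose medium. GAL1, the galactokinase, and MAL13, an activator of maltose genes, had -1.27 (SE 0.37) and -0.62 (SE 0.18), and MAL13 fell by 0.46 in LSMMG (adjusted p = 0.014).

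The genes of haploid mating and of meiosis, which a growing diploid keeps silent, had negative median differences, and none passed the test. All 23 genes of haploid mating had a negative difference, with a median of -0.91, and 11 (47.8%) were lower without overlap, against 15.8% of all named genes. Their median log2 ratios were 0.12, 0.29 and -0.67 on Ctrl 5 and -0.82, -1.01 and -1.06 on Ctrl 25, with Ctrl 5 replicate 3 nearest to Ctrl 25. MFA1 (YDR461W), a gene for the mating pheromone a-factor, had 0.908, 1.03 and 0.520 on Ctrl 5 against 0.354, 0.286 and 0.367 on Ctrl 25, a log2 difference of -1.24 (SE 0.27, adjusted p = 0.35). In LSMMG it fell by 1.23 (adjusted p = 0.0038), with ratios of 2.23, 2.96 and 2.36 at 5 generations and 1.08, 1.14 and 0.984 at 25 generations. MFA2, the other a-factor gene, had a log2 difference of -1.16 (SE 0.26) and AGA1, the anchor of a cell surface agglutinin, one of -1.01 (SE 0.25) in the controls, and neither passed in LSMMG (adjusted p = 0.29 and 0.31).

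Of 26 genes of meiosis and sporulation, 24 had a negative difference, with a median of -0.68, and 13 (50%) were lower without overlap, against 15.8% of all named genes. IME1 (YJR094C), the master regulator of entry into meiosis, had 0.781, 0.904 and 0.856 on Ctrl 5 against 0.528, 0.525 and 0.554 on Ctrl 25, a log2 difference of -0.66 (SE 0.11, adjusted p = 0.35). Both groups were narrow, with SDs of 0.11 and 0.043 on the log2 scale, and Ctrl 5 replicate 3 lay with its own group. SPO19 (YPL130W), a meiosis-specific protein of the prospore membrane, had 1.25, 2.13 and 0.565 against 0.399, 0.291 and 0.316, a log2 difference of -1.79 (SE 0.45, adjusted p = 0.35). DIT2, of the dityrosine layer of the spore wall, and SPS2, of spore wall assembly, had -0.87 (SE 0.23) and -1.04 (SE 0.28). The 14 genes of flocculation and filamentous growth had a median of -0.41 with 7 (50%) lower without overlap, among them FLO11 (YIR019C), the flocculin, with 0.774, 0.805 and 0.984 against 0.670, 0.494 and 0.687.

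The seripauperin family and the hypoxic genes include cell wall mannoproteins of anaerobic growth, and none of their members passed the test. Of 24 seripauperin genes 13 were measured (54.2%), with a median difference of -0.69, and 7 (53.8%) were lower without overlap, against 15.8% of all named genes. PAU24 (YBR301W) had 0.538, 0.667 and 0.531 on Ctrl 5 against 0.292, 0.337 and 0.267 on Ctrl 25, a log2 difference of -0.95 (SE 0.15, adjusted p = 0.35), with Ctrl 5 replicate 3 beside replicate 1. After quantile normalization the difference of PAU24 was -0.31 (adjusted p = 0.53). PAU4 and PAU18 had -0.69 (SE 0.20) and -0.51 (SE 0.14). The difference in LSMMG was positive for these 3 genes, 0.24, 0.18 and 0.23, with adjusted p of 0.32, 0.57 and 0.44. The 25 hypoxic and anaerobic genes had a median of -0.27, with 7 (28.0%) lower and 0 higher without overlap. The 13 genes of the subtelomeric COS and AAD families had a median of -0.32 but 0 without overlap, and those named by their moderated t were COS12, COS7, AAD3 and AAD14 with -0.54 (SE 0.27), -0.61 (SE 0.34), -0.50 (SE 0.26) and -0.64 (SE 0.38). Other probe sets of AAD3 gave -0.07 (SE 0.28) and -0.20 (SE 0.29).

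The lists of nitrogen, zinc, iron, sulfate and vitamin genes had medians between -0.27 and -0.45, and none of their genes passed the test. Other lists of nutrients did not share this range, with medians of 0.24 for phosphate, -0.0076 for amino acid permeases and -0.15 for copper. The 32 genes under nitrogen catabolite repression had a median of -0.45, with 9 (28.1%) lower without overlap, against 15.8% of all named genes. DAL5 (YJR152W), the allantoate permease, had 1.09, 1.17 and 0.711 on Ctrl 5 against 0.611, 0.486 and 0.553, a log2 difference of -0.82 (SE 0.21, adjusted p = 0.35). PUT4 (YOR348C), the proline permease, had 1.49, 1.57 and 0.844 against 0.586, 0.742 and 0.728, a log2 difference of -0.88 (SE 0.26), and fell by 0.83 in LSMMG (adjusted p = 0.023). UGA4, the permease for GABA, and DAL1, the allantoinase, had -1.03 (SE 0.27) and -0.41 (SE 0.11).

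The 13 zinc genes had a median of -0.41, with 6 (46.2%) lower without overlap, and the 28 iron uptake genes one of -0.27, with 11 (39.3%) lower, against 15.8% of all named genes. ZAP1 (YJL056C), the transcription factor of zinc deficiency, had 1.07, 1.21 and 0.742 against 0.566, 0.496 and 0.664, a log2 difference of -0.79 (SE 0.21, adjusted p = 0.35). IZH1 (YDR492W), a membrane protein of zinc homeostasis, had 2.12, 2.17 and 1.80 against 1.19, 1.04 and 1.35, a log2 difference of -0.77 (SE 0.14, adjusted p = 0.35), with all 3 Ctrl 5 arrays close together. It fell by 0.29 in LSMMG (adjusted p = 0.034). IZH4 and ZRG17, a zinc transporter subunit, had -0.60 (SE 0.19) and -0.41 (SE 0.12).

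The 25 genes of sulfate assimilation and methionine had a median of -0.38, with 6 (24.0%) lower without overlap. The 29 measured genes of thiamine, pyridoxine, biotin and nicotinate had one of -0.43, with 9 (31.0%) lower and 2 higher. Of all named genes, 15.8% were lower and 5.51% higher. SUL2 (YLR092W), a sulfate permease, had 0.841, 1.07 and 0.555 against 0.290, 0.365 and 0.394, a log2 difference of -1.19 (SE 0.26, adjusted p = 0.35). STR3, a cystathionine lyase, MET2, which acetylates homoserine, and MET31, a regulator of the pathway, had -1.40 (SE 0.44), -0.80 (SE 0.27) and -0.44 (SE 0.13). BIO5 (YNR056C), a transporter of a biotin precursor, had 1.12, 2.21 and 0.902 against 0.411, 0.421 and 0.604, a log2 difference of -1.47 (SE 0.34). THI72, a transporter of the thiamine family, and THI2, the activator of thiamine genes, had -1.17 (SE 0.26) and -0.64 (SE 0.15). The adjusted p was 0.35 for all 3. BNA1 (YJR025C), an enzyme of NAD synthesis, ran the other way, with 0.994, 0.881 and 1.26 against 1.74, 1.63 and 1.39, a log2 difference of 0.61 (SE 0.17, adjusted p = 0.35), and it rose by 1.12 in LSMMG (adjusted p = 0.0022).

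Amino acid synthesis had a positive median of 0.18 over 47 genes, with 5 higher and 4 lower without overlap. Of all named genes, 5.51% were higher and 15.8% lower. Genes that this strain lacks or carries in 1 copy, the strain markers, had a positive median of 0.44 over 5 genes, with 4 positive differences, 1 negative and 0 without overlap. The 4 given here are the positive ones. LEU2 (YCL018W) is deleted in the BY4743 background, so its probe set has no full target, and it still ran over 2.54-fold, with 1.01, 0.777 and 1.35 on Ctrl 5 against 1.97, 1.46 and 1.30 on Ctrl 25. URA3 (YEL021W), deleted as well, had 1.20, 0.867 and 0.709 against 0.986, 1.03 and 1.11. LYS2 and MET17, each lacking 1 of 2 copies, had log2 differences of 0.44 (SE 0.22) and 0.46 (SE 0.38). The remaining lists, 35 with an absolute median under 0.3, had medians between -0.27 and 0.24. The 8 genes of the mitochondrial genome on the list were not measured.

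The same contrast in LSMMG shares no array with the controls, and there the spread was smaller and 44 probe sets were called, 21 higher (0.234%) and 23 lower (0.256%) at 25 generations. Of the 5449 named genes, 3330 (61.1%) had the same sign of difference in both kinds of vessel, with a correlation across genes of 0.314. The difference between the LSMMG and control contrasts passed for 12 probe sets, 6 positive (0.0669%) and 6 negative (0.0669%). This test took a common estimate of spread for LSMMG and control arrays. The median SD was 0.25 within Ctrl 5 and 0.157 within Ctrl 25, against 0.0806 within SMG 5 and 0.0910 within SMG 25. What this unequal spread does to the adjusted p was not tested. After quantile normalization there were 75, 47 positive and 28 negative, and without Ctrl 5 replicate 3 there were 565.

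For the genes named from this interaction the LSMMG contrast was the larger one in 9 of 10. STP4 (YDL048C), a zinc-finger protein, had ratios of 0.806, 0.528 and 0.662 on Ctrl 5 and 0.831, 0.961 and 0.858 on Ctrl 25, and fell in LSMMG from 2.52, 2.67 and 2.51 to 1.14, 1.10 and 1.04, a difference between contrasts of -1.66 (SE 0.19, adjusted p = 0.012). PLN1 (YKR046C), a protein of lipid droplets, had 0.942, 0.847 and 0.943 against 1.10, 1.02 and 0.759 in the controls, a log2 difference of 0.06 (SE 0.16), where its LSMMG difference was -1.46. PFK27 (YOL136C), which makes fructose 2,6-bisphosphate, spanned only 1.18-fold over the 6 control arrays, with 0.997, 1.02 and 0.973 against 0.987, 1.05 and 1.15, and differed by -1.22 (SE 0.14, adjusted p = 0.012) between contrasts.

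PRM1 (YNL279W), a protein of membrane fusion in mating, was the gene of these 10 with the larger contrast in the controls. It had 1.15, 1.21 and 0.817 on Ctrl 5 against 0.568, 0.597 and 0.5 on Ctrl 25, a log2 difference of -0.91 (SE 0.18, adjusted p = 0.35), and rose by 0.57 in LSMMG (adjusted p = 0.017). The contrasts differed by 1.49 (SE 0.22, adjusted p = 0.025). Of the 12 called for the interaction, 2 outside the 10 genes also had the larger contrast in the controls, and they are given here after their values were seen. ANB1 (YJR047C), a hypoxic form of a translation factor, had 1.28, 1.08 and 0.744 on Ctrl 5 against 0.594, 0.431 and 0.619 on Ctrl 25, a log2 difference of -0.90 (SE 0.24), and rose by 0.74 in LSMMG (adjusted p = 0.0045), a difference between contrasts of 1.64 (adjusted p = 0.042). An unnamed probe set had a log2 difference of 0.73 in the controls and -0.27 in LSMMG (adjusted p = 0.12) and passed the interaction test with an adjusted p of 0.036. ZPS1 (YOL154W), a gene induced by low zinc, and FET4 (YMR319C), a low-affinity iron transporter, had control differences of -0.32 (SE 0.13) and -0.36 (SE 0.13), and their LSMMG rises were 0.83 and 0.72 (adjusted p = 0.0026 and 0.0059). The differences between contrasts of CSI2, PRP43, VID24 and AQR1 were 1.28, 1.31, -1.17 and -1.41, with adjusted p of 0.018, 0.034, 0.029 and 0.029. With the replicate block VID24 and AQR1 no longer passed (adjusted p = 0.073 and 0.057), and 9 probe sets did. Without SMG 5 replicate 2, or without SMG 25 replicate 1, 0 probe sets passed. The plot of genes that differed between vessels gives all 12 ratios.

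**Figure D5:**
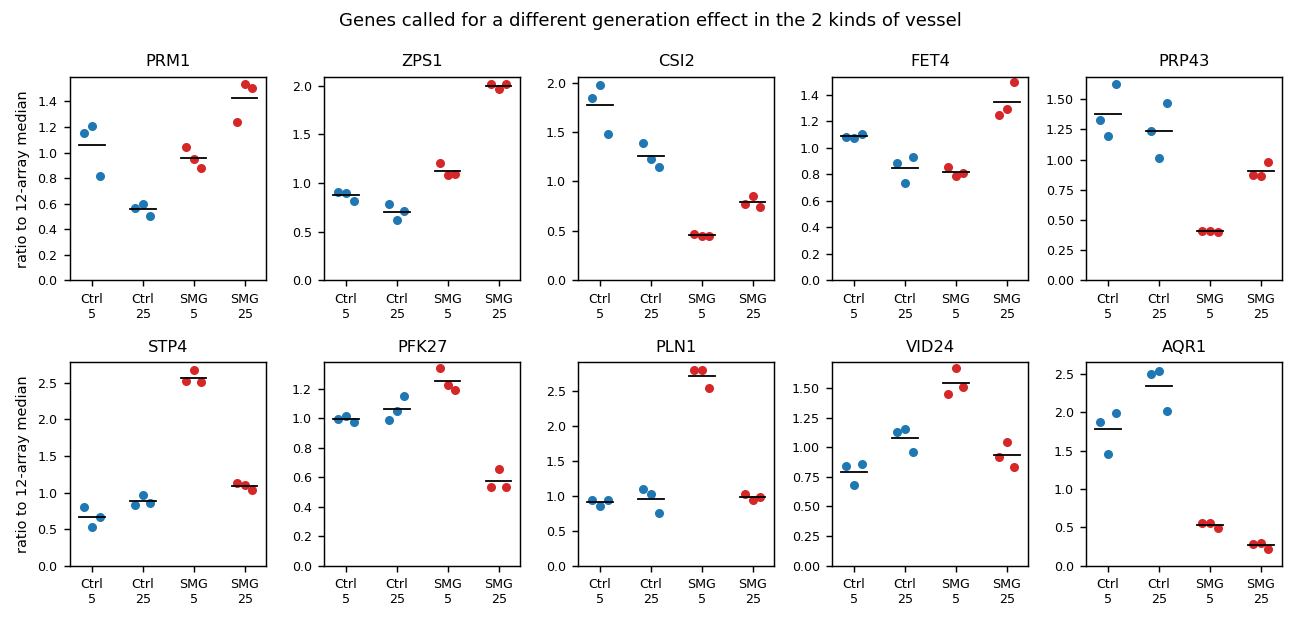
Points give the ratio to the 12-array median (vertical axis) for each array in Ctrl 5, Ctrl 25, SMG 5 and SMG 25, and lines the mean of 3 arrays, for 10 genes called for a different generation effect. For PLN1, PFK27 and PRP43 the control arrays stay close across generations and the LSMMG arrays separate, whereas PRM1 separates in both, in opposite directions.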

How the data were processed

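Gene expression was measured on 12 one-colour Affymetrix Yeast Genome 2.0 arrays, and the 6 control arrays were analysed here. The authors computed expression values with RMA and worked in GeneSpring, and deposited 1 ratio per probe set and array. How these were scaled is not given in the sources used here. In the deposited ratios every array has a median of 1 and every probe set a median of 0.993 to 1.01 over the 12 arrays. The paper describes a control array left out as aberrant without naming it, and its cluster figure labels 1 more control array as 5 generations than the titles do. Titles were used.

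Of 10928 probe sets, 213 array controls (reporter probe sets included), 1746 of S. pombe and 1 with several genes were left out, and 8968 were tested, 3470 of them unnamed. GEO's platform annotation named 5449 genes, with 12 symbols updated through RefSeq R64, and 47 genes with several probe sets took the first. Log2 ratios, with no constant added, were fitted with limma 3.58.1 (lmFit and eBayes, two-sided moderated tests) in R 4.3.3 on Ctrl 5 and Ctrl 25 alone. Adjusted p is by Benjamini-Hochberg over the 8968. A call needed an adjusted p under 0.05 and a 2-fold difference. The LSMMG contrast was fitted likewise, and the difference of contrasts on all 12 arrays. The number of arrays, 3 per group, limits the precision.

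The members and the 50 gene lists were chosen with earlier results of these data known. Named genes are the 10 largest log2 differences each way among genes without overlap (0 were called), the 15 largest SDs over the 6 arrays and the 5 largest within each group, up to 4 members by moderated t of each list with an absolute median of at least 0.3, and the 5 strongest each way in the difference of contrasts. Ctrl 5 and Ctrl 25 arrays of the same number deviated together from their group means (correlations of 0.103, 0.312 and 0.490), so the number was taken to pair them, on the data alone. This pairing is uncertain, because Ctrl 5 replicate 1 correlated more closely with Ctrl 25 replicate 2 (0.400). Ctrl 5 replicate 2 correlated at 0.141 with Ctrl 25 replicate 1. In LSMMG, arrays of the same number correlated at 0.133, -0.163 and 0.0229, so the data give little basis for the block there. The control comparison was also run on simulated data, by adjusted p without the 2-fold minimum. Of probe sets changed by 2-fold 30 of 50 passed, and of those changed by 4-fold 41 of 50, with 9 false calls. The simulation drew each probe set independently, with the same spread in both groups. The control arrays deviated over many probe sets at once and their groups differed in spread, so these shares do not give the power of the reported test. Alternatives covered normalization, filters, array weights, each array left out and the methods' t-test. Sequences were not used here, and coordinates served only to order the genes along each chromosome.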

Additional observations from a re-analysis of the deposited data

Results flagged for a closer look

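The generation contrast differed between LSMMG and control HARVs for 12 probe sets by limma's interaction test, in which the difference of contrasts is LSMMG minus control on the log2 scale. That test assumed a common spread, although the control arrays spread more than the LSMMG arrays. The difference of contrasts was 1.49 for PRM1, 1.31 for PRP43, 1.28 for CSI2, 1.14 for ZPS1 and 1.08 for FET4, all 5 positive. It was -1.66 for STP4, -1.52 for PLN1, -1.41 for AQR1, -1.22 for PFK27 and -1.17 for VID24. Groups of 3 arrays were too small to test single arrays as outliers. The low ratios of HAC1 and SPT5 on Ctrl 5 replicate 2 and the rRNA control ratios of 104 and 96.9 on Ctrl 25 replicates 1 and 2 are therefore given as values only.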

How the results depend on the processing

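The count of 0 calls between Ctrl 25 and Ctrl 5 became 3 with the replicate block, 6 in a fit on all 12 arrays and 553 with array weights, and leaving out single arrays gave 0 to 656, the latter without Ctrl 5 replicate 3. Chosen after seeing the data, leaving out replicate 3 of both groups gave 616 and leaving out Ctrl 25 replicates 1 and 2 gave 0. The remaining settings gave 0 calls, among them the methods' t-test, by which 488 probe sets had an unadjusted p under 0.05. In LSMMG 44 calls became 1200 without a fold minimum, 46 after quantile normalization and 42 with the replicate block, and 33 to 66 without single arrays. The 12 interaction calls became 75 after quantile normalization, 9 with the replicate block and 0 to 565 without single arrays, 0 without SMG 5 replicate 2 or SMG 25 replicate 1. Of the 15 most variable genes, 11 to 15 stayed among the 15 without single arrays and 10 after quantile normalization. Signs turned for MPC3 (0.29 after quantile normalization) and URA3 (-0.16 with array weights, -0.017 without replicate 3 of both groups). Quantile normalization kept the sign of, and moved by over 1.5 times, the log2 difference of SPG1 (-0.98), SIP18 (-0.89), MET2 (-0.50), IME1 (-0.38), NRG2 (-0.085), FLO11 (-0.16), PXA1 (-0.21), MAL13 (-0.29), PAU24 (-0.31), COS12 (-0.21), COS7 (-0.18) and AAD14 (-0.36). Without Ctrl 5 replicates 1 and 2 signs turned for SIP18 (0.17), AAD14 (0.25), COS7 (0.064), LYS2 (-0.051) and MET17 (-0.43). That setting leaves 1 array at 5 generations, assumed to vary like Ctrl 25, and it moved 35 of 49 list medians by more than the spread between arrays, against 12 without Ctrl 5 replicate 3. Where settings changed a count, the cause was not tested. The planned search of promoters was not run.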
